A study of Mus musculus with 12 samples.

Results

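Expression of 9 reproductive axis genes was examined in the hypothalamus of mouse pups. They were chosen by name and comprise the estrogen receptors Esr1 and Esr2, the progesterone receptor Pgr, the prolactin receptor Prlr, kisspeptin (Kiss1) and its receptor Kiss1r, the neurokinin B precursor Tac2, the gonadotropin-releasing hormone (GnRH) precursor Gnrh1, and aromatase (Cyp19a1). Each is 1 of the 43280 gene rows of a table of read counts. At least 1 count was found for 8 of the 9, and 6 had enough counts for the test across genes.

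The mice were male C57/Bl6 pups at postnatal day 6 (P6), with 6 in the Control group and 6 in the modified maternal separation (MMS) group. In MMS, pups spent a daily session away from the dam on a heating pad and were turned onto their backs whenever they righted themselves, and tissue was taken directly after the last session. Controls were drawn from the same litters, which had been reduced to males, and as the labels do not give each pup's litter, p-values treat the pups as independent. Each library came from the hypothalamus of 1 pup, cut out between the optic chiasm and the mamillary recess.

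GnRH neurons lie scattered through the preoptic area and release the peptide that drives gonadotropin secretion by the pituitary. Kisspeptin, acting through Kiss1r on these neurons, is their main excitatory input, and the arcuate kisspeptin neurons also make neurokinin B from Tac2. Estrogen, progesterone and prolactin act back on this circuit through Esr1, Pgr and Prlr, and aromatase makes estrogen from testosterone within the brain, which in male rodents shapes hypothalamic circuits around birth.

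The libraries held 3218777 to 6560620 counts (3765759 to 6560620 in controls, 3218777 to 5344080 in MMS). All 14 hypothalamic identity markers, among them Nkx2-1, Otp, Avp and Pmch, had counts, with summed levels of 1017 to 2039 CPM (counts scaled to a common library total) in controls and 1416 to 1884 in MMS. On the first principal component MMS 2 (57.8) and MMS 4 (46.3) lay far from all other libraries (-14.4 to -3.04). These libraries also had the lowest levels of ependymal cilia markers (27.0 and 57.8 CPM summed over the 15 genes in the table, against 111 to 239 in the rest). Control 3 held 1805 CPM of choroid plexus markers, nearly all of it Ttr, against 23.1 to 55.7 CPM in the other libraries. Pituitary markers ran from 0.228 to 25.2 CPM in controls and from 0 to 41.3 in MMS. Of the 9 listed, Pou1f1 and Fshb had 0 counts in all libraries, and Prl and Lhb had 2 counts each. Gh ran from 0 to 26.5 CPM, highest in MMS 3, and Cga from 0 to 22.9 CPM, highest in Control 6. The part of pituitary tissue in these libraries was not tested.

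Prlr was the most abundant of the 9 genes and Kiss1 had no counts. Since a 3' library gives about 1 read per transcript whatever its length, CPM was set side by side between genes. The comparison is approximate, as the handling of reads shared between genes is not given. Over the 12 libraries the mean was 17.2 ± 3.71 CPM for Prlr, 12.5 ± 4.03 for Tac2, 11.7 ± 2.39 for Pgr and 10.7 ± 3.22 for Kiss1r (SD, n = 12). Esr1 followed at 7.05 ± 2.74 CPM and Gnrh1 at 3.60 ± 2.62, while Cyp19a1 (0.543 ± 0.514) and Esr2 (0.542 ± 0.419) were near the limit of detection (SD, n = 12). Prlr lay above Tac2 in 10 of 12 libraries and Kiss1r above Esr1 in 10 of 12. Tac2 lay above Pgr in 6 of 12 and Pgr above Kiss1r in 8 of 12, and the differences between these neighbours were smaller than their SD. None of the 9 genes was among the more abundant: Prlr exceeded 39.9% of the 13104 genes tested, Pgr 30.1%, Esr1 19.4% and Gnrh1 7.33%. Esr2, Cyp19a1 and Kiss1 exceeded 0%.

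**Figure D1:**
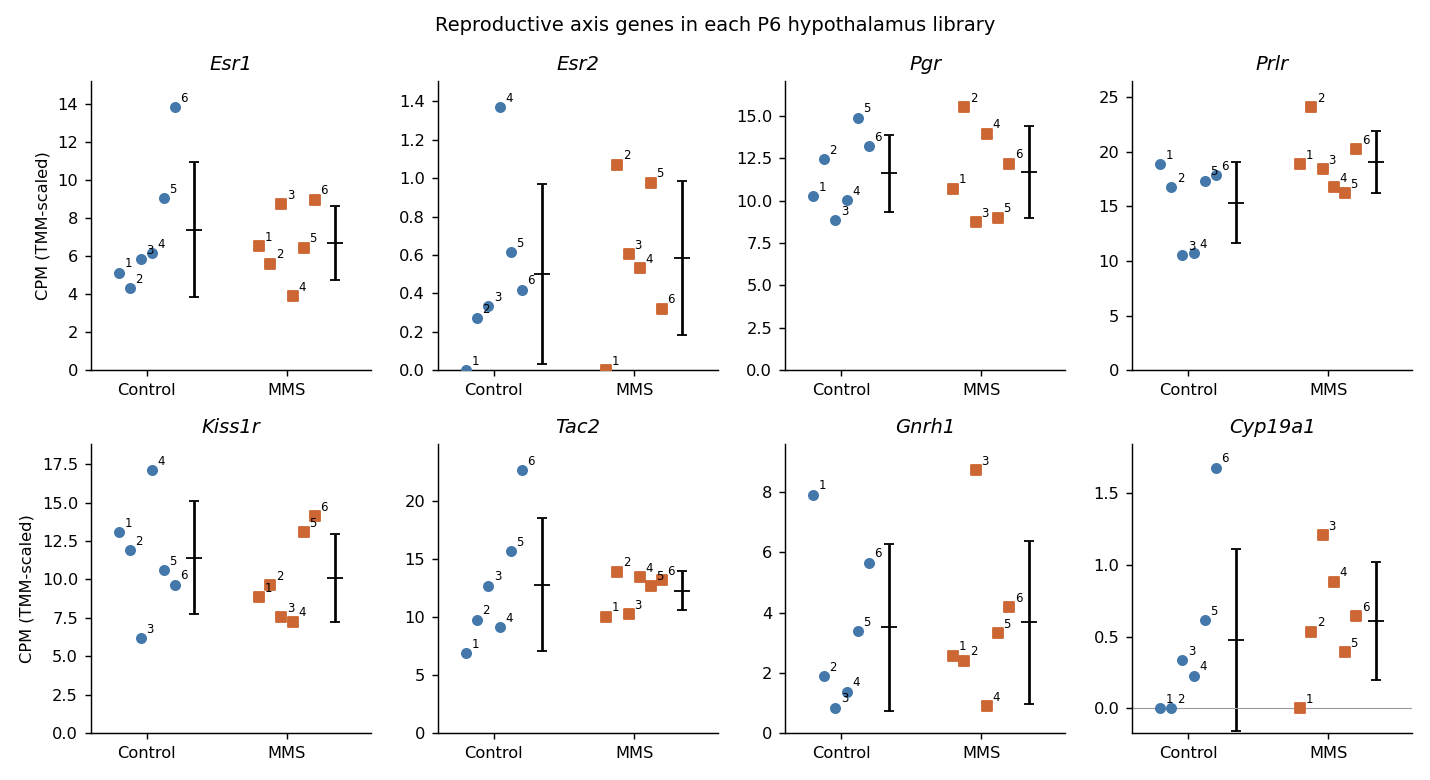
Level of 8 reproductive axis genes in each library, in CPM on scaled library totals, for the 6 Control (circles) and 6 MMS (squares) pups; numbers beside points are the replicate numbers, and bars give the mean ± SD. The groups overlapped for every gene shown, and Gnrh1 ranged from 0.835 to 8.74 CPM within the 12 libraries.

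The first question was whether MMS changed the level of any of these genes. With edgeR, 0 of the 6 genes tested were past a false discovery rate (FDR) of 0.05, and 0 had an unadjusted p under 0.05. Over all 13104 genes, 0 (0.0%) were past the FDR threshold in edgeR, where DESeq2 placed 6 and limma-voom 0 past it, and 1190 (9.08%) had an unadjusted p under 0.05. DESeq2 and limma-voom likewise gave 0 of the reproductive axis genes at an unadjusted p under 0.05. No gene of the 9 had groups that did not overlap, which was found for 0.389% of all genes tested. In tissue of mixed cell types, a difference in the number of cells of a type cannot be told apart from one in RNA per cell.

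Among the receptors for gonadal steroids, Esr1 was the main estrogen receptor transcript. Pgr had a mean 1.65 times that of Esr1 and lay above it in 10 of 12 libraries. Esr1, on the plus strand at 10:4611593-5005614 (build mm10), encodes estrogen receptor alpha. Its level in controls had a lowest value of 4.33, a median of 6.00 and a highest value of 13.8 CPM, and in MMS pups 3.89, 6.48 and 8.98 CPM. The ranges overlapped, with 1 MMS library below all controls and 0 above them. The highest values of all, in Control 6 (13.8 CPM) and Control 5 (9.06 CPM), were both those of controls. The mean was 7.40 ± 3.54 CPM in controls and 6.70 ± 1.93 in MMS (SD, n = 6 per group), a log2 fold change of -0.17 (SE 0.29, 95% interval -0.77 to 0.42, edgeR adjusted p = 0.854). Without Control 6 the log2 fold change was 0.10, and without both MMS 2 and MMS 4 it was 0.03, so its sign changed with the libraries included.

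Esr2 encodes estrogen receptor beta and lies on the minus strand at 12:76120419-76177259. It had 30 counts in all, 15 in each group and at most 6 in any library, and Control 1 and MMS 1 had none. These values were too low for the test across genes. On the CPM scale the groups measured 0.501 ± 0.470 and 0.583 ± 0.401 (SD, n = 6 per group), and a two-sided exact permutation test gave p = 0.773. The ratio of the pooled counts, MMS to control and scaled by library totals, was 1.20, with an exact 95% interval for counting error alone of 0.548 to 2.64, an interval so wide that only large changes could be seen at this depth. Esr1 exceeded Esr2 in all 12 libraries, with a mean 12.996 times as high.

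Pgr, on the plus strand at 9:8899833-8968611, encodes the nuclear progesterone receptor and is a classical target of estrogen receptor alpha. Control values had a minimum of 8.85, a median of 11.4 and a maximum of 14.9 CPM, and MMS values 8.74, 11.5 and 15.5 CPM. The distributions were almost superimposed. The means of 11.6 ± 2.28 and 11.7 ± 2.72 CPM (SD, n = 6 per group) corresponded to a log2 fold change of 0.01 (SE 0.20), at an edgeR adjusted p of 0.992. The 95% interval of the fold was 0.757 to 1.33, the narrowest of the 6 tested genes on the log2 scale after Prlr. MMS 2 reached 15.5 CPM, the highest value of Pgr, and without both MMS 2 and MMS 4 the log2 fold change was -0.20 (edgeR adjusted p = 0.964).

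Prlr came closest to a difference. It lies on the plus strand at 15:10177238-10349180 and encodes the receptor through which prolactin acts on the hypothalamus. In controls the lowest, median and highest values were 10.5, 17.1 and 18.8 CPM, and in MMS pups 16.2, 18.6 and 24.1 CPM. The MMS libraries MMS 1, MMS 2 and MMS 6 lay above all controls, MMS 1 (18.9 CPM) barely above Control 1 (18.8 CPM), and none lay below them. Control 3 (10.5 CPM) and Control 4 (10.7 CPM) were the lowest, and the other 4 controls lay between 16.8 and 18.8 CPM. The mean was 15.3 ± 3.72 CPM in controls and 19.1 ± 2.84 in MMS (SD, n = 6 per group). The log2 fold change was 0.31 (SE 0.18, 95% interval -0.06 to 0.68), with an unadjusted p of 0.0982 and an adjusted p of 0.589 in edgeR, and the exact permutation test of CPM gave p = 0.0952 (two-sided). The sign held in all 12 fits without 1 library (0.22 to 0.38) and in 8 other settings (0.23 to 0.33), with adjusted p-values of 0.393 or more in edgeR, DESeq2 and limma-voom. Without Control 3 it was 0.22, without Control 4 0.23, and without MMS 2 0.24.

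The choroid plexus is known for strong expression of Prlr, so its markers were set beside the gene. The 10 choroid plexus markers summed to between 25.98 and 1805 CPM in controls and 23.1 to 36.4 CPM in MMS, and each of the 10 had counts in some library. Control 3, with 1726 CPM of Ttr, had the lowest Prlr of all 12 libraries, and its other 9 markers summed to 78.6 CPM, the highest value. Control 4, with the next lowest Prlr, had the next highest sum (55.7 CPM), of which Ttr made up 35.4 CPM, and in a sum taken after the values were seen its other 9 markers came to 20.3 CPM, the lowest of all libraries (21.2 to 32.3 CPM in the remaining 10). The part of choroid plexus tissue in the Prlr values was not tested. The other 10 libraries lay between 23.1 and 36.4 CPM of these markers and between 16.2 and 24.1 CPM of Prlr.

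Kiss1r, the kisspeptin receptor, lies on the plus strand at 10:79916971-79922273. It ran from 6.18 through a median of 11.3 to 17.1 CPM in controls and from 7.24 through 9.24 to 14.1 CPM in MMS. All 6 MMS values fell inside the control range. The log2 fold change was -0.18 (SE 0.24, 95% interval -0.67 to 0.32, edgeR adjusted p = 0.819). It was -0.03 without Control 4, the library with the highest value, -0.05 without both MMS 2 and MMS 4, and -0.31 without Control 3. Of the exonic bases of Kiss1r, 6.41% overlap exons of R3hdm4 on the opposite strand. R3hdm4 had 12881 counts and the strand setting of the counting is not given, but none of this overlap lies in the last exon, where most 3' reads fall.

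Kiss1 itself had 0 counts in all 12 libraries, which allows a level of up to 0.0544 CPM over the libraries together. It lies on the plus strand at 1:133321875-133329901. All 779 of its exonic bases in the GENCODE annotation are also exonic in Gm28040, a gene model on the same strand, and Gm28040 had 0 counts as well. Among protein-coding genes of the table whose exonic bases are all shared with another gene of the same strand, 46 of 52 (88.5%) had 0 counts in every library, against 4047 of 19215 (21.1%) of those sharing none. A lack of Kiss1 transcripts and the removal of reads that match both gene models cannot be told apart here.

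Tac2 encodes neurokinin B, made in the arcuate nucleus and in other forebrain regions, and lies on the plus strand at 10:127724478-127731768. In controls it ran from 6.85 through a median of 11.2 to 22.7 CPM, and in MMS from 10.01 through 12.9 to 13.9 CPM. All MMS libraries lay within the control range, and controls held both the lowest value (Control 1) and the highest (Control 6). The means were 12.8 ± 5.72 and 12.2 ± 1.68 CPM (SD, n = 6 per group; log2 fold change -0.07, SE 0.24, edgeR adjusted p = 0.933). The coefficient of variation was 44.7% in controls and 13.7% in MMS, and this difference in spread was not tested. Without Control 6 the log2 fold change was 0.17.

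Gnrh1, on the plus strand at 14:67745181-67749439, varied far more between pups than between groups. It was lowest in Control 3 (0.835 CPM), MMS 4 (0.883 CPM) and Control 4 (1.37 CPM), and highest in MMS 3 (8.74 CPM), Control 1 (7.93 CPM) and Control 6 (5.67 CPM). Both ends of this 10.5-fold range thus held libraries of each group. The median was 2.64 CPM for controls and 2.94 for MMS, and the means were 3.51 ± 2.78 and 3.68 ± 2.71 CPM (SD, n = 6 per group). On the log2 scale the groups differed by 0.02 (SE 0.54), with an edgeR adjusted p of 0.993. Its 95% interval of the fold ran from 0.461 to 2.22, the widest of the 6 genes. On leaving out 1 library it ran from -0.43 (without MMS 3) to 0.43 (without Control 1), and it was 0.39 without both MMS 2 and MMS 4. Kiss1r exceeded Gnrh1 in 11 of 12 libraries, with a mean 2.99 times as high.

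Cyp19a1 encodes aromatase and lies on the minus strand at 9:54165937-54268110. It had 30 counts, 15 in each group, and was at 0 in Control 1, Control 2 and MMS 1. The highest value was 1.68 CPM, from 8 counts, in Control 6, and the highest MMS value was 1.21 CPM in MMS 3. It was too low for the test across genes, and in CPM the difference between groups (0.476 ± 0.632 against 0.609 ± 0.414, SD, n = 6 per group) was within their spread, with p = 0.688 in a two-sided exact permutation test. Because its totals are those of Esr2, the counting interval of the ratio is the same, 0.548 to 2.64.

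**Figure D2:**
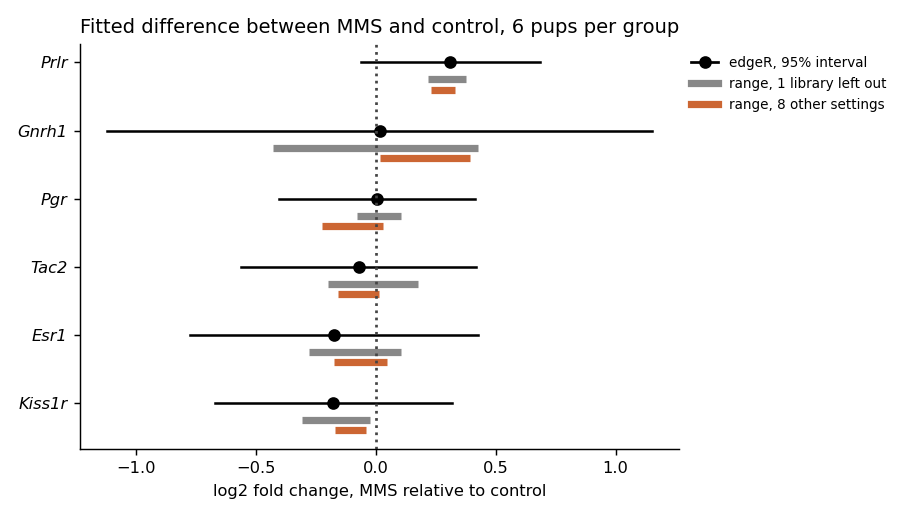
Log2 fold change of the 6 tested genes, MMS relative to control, with the edgeR estimate and its 95% interval (black), the range over 12 fits without 1 library (grey) and the range over 8 other settings (orange). Every 95% interval crosses 0, that of Gnrh1 being the widest (-1.12 to 1.15) and that of Prlr reaching from -0.06 to 0.68.

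The second question was how much these genes differed between pups of the same group. Spread was expressed as the variance within groups over the variance that counting alone gives, where 1 means no more than counting noise. The ratio was 9.54 for Gnrh1, 6.34 for Tac2, 5.11 for Esr1, 4.76 for Kiss1r, 3.21 for Prlr and 2.60 for Pgr. Set against genes with a mean count within 1.5-fold of its own, Gnrh1 was more variable than 98.5% of 1639 genes, whose median ratio was 2.53. Tac2 exceeded 86.6% and Esr1 84.9% of their like, whereas Pgr exceeded 34.9% and Prlr 41.7%. Pgr and Prlr thus varied between pups about as much as the median gene of their abundance. Esr2 (1.56) and Cyp19a1 (2.44) had no tested genes of like abundance.

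**Figure D3:**
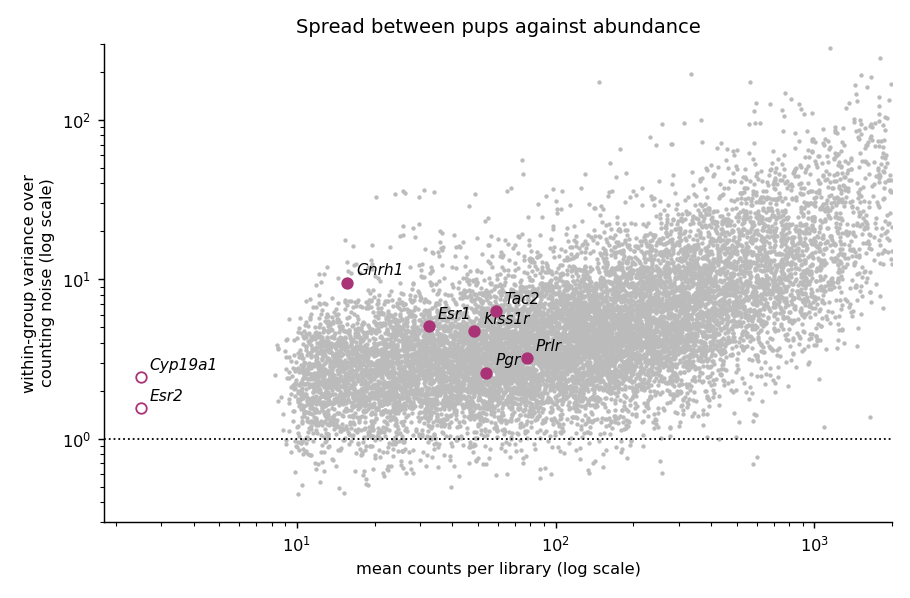
Within-group variance over counting noise against mean counts per library, both on log scales, for tested genes (grey, those more abundant than the axis reaches not drawn) and the reproductive axis genes (filled where tested, open where too low). The dotted line marks counting noise alone, and Gnrh1, at a ratio of 9.54, sits near the upper edge of genes of its abundance.

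Region markers were then set beside the genes, since the cut of the tissue could differ between pups. The 8 preoptic area markers, from the region that holds GnRH neurons, summed to 199 to 236 CPM in controls and 216 to 290 CPM in MMS, and all 8 had counts. MMS 4, with the highest preoptic sum (290 CPM), had one of the lowest Gnrh1 levels (0.883 CPM), and Control 3, with the lowest sum (199 CPM), had the lowest. The marker Nts alone made up 139 CPM of the preoptic sum in MMS 4 and 63.1 CPM in Control 3. The 9 arcuate nucleus markers summed to 403 to 714 CPM in controls and 255 to 722 CPM in MMS, lowest in MMS 2 (255 CPM) and MMS 4 (258 CPM). Tac2 was not low in those 2 libraries (13.9 and 13.4 CPM). The 7 ventromedial markers summed to 306 to 511 CPM in controls and 230 to 462 CPM in MMS. Esr1, which is abundant in that nucleus, was lowest in the library with the lowest sum, MMS 4. The next lowest Esr1, in Control 2 (4.33 CPM), went with a sum of 383 CPM. MMS 2, with the next lowest sum (283 CPM), had 5.62 CPM of Esr1. The part of the cut of the tissue in these differences was not tested.

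**Figure D4:**
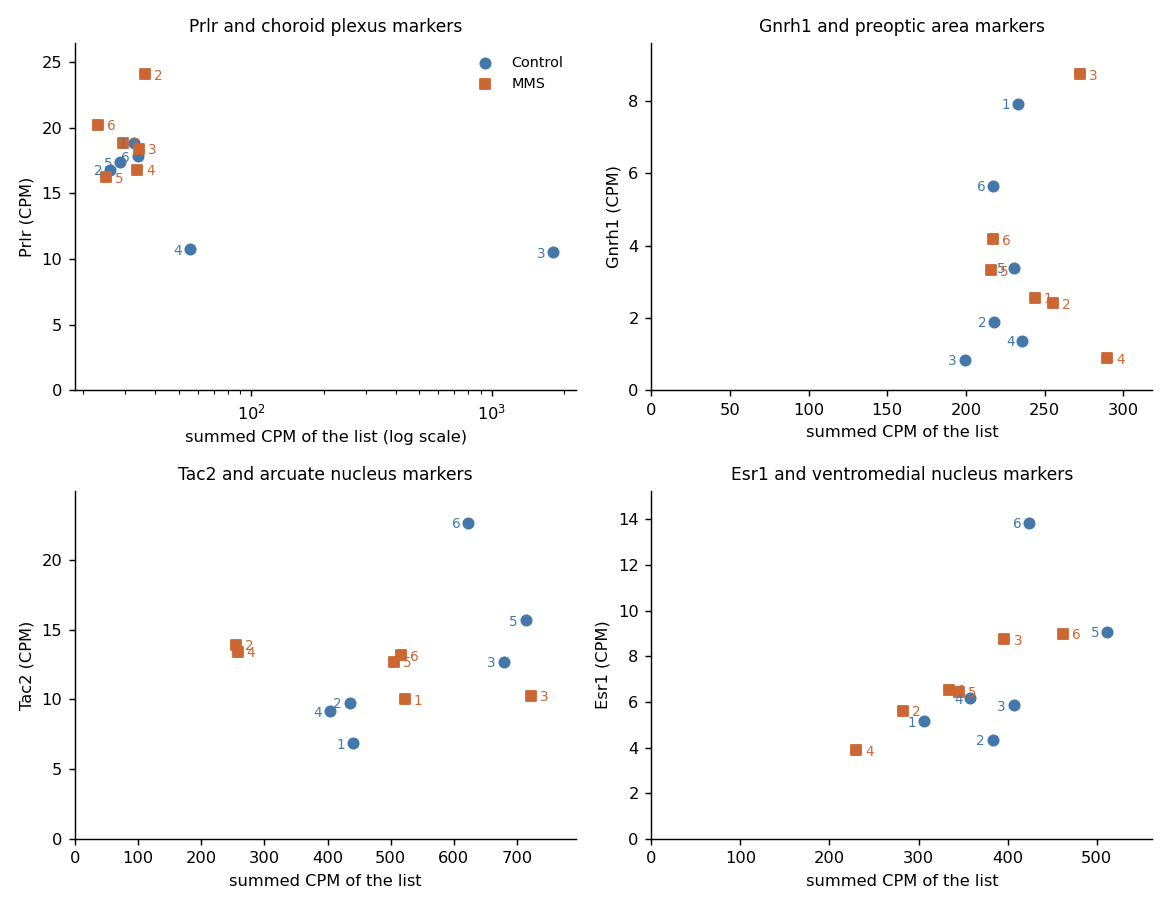
Level of Prlr, Gnrh1, Tac2 and Esr1 (CPM) against the summed CPM of a marker list in the same library, with replicate numbers beside Control (circles) and MMS (squares) points; the choroid plexus axis is logarithmic. Control 3 combines 1805 CPM of choroid plexus markers with the lowest Prlr, and MMS 2 and MMS 4 combine the lowest arcuate sums with Tac2 levels of 13.9 and 13.4 CPM.

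For each gene with a mean of at least 10 counts, the 2 tested genes with the most similar pattern over the 12 libraries were taken by the mean absolute difference between standardised log2 levels. Among them were Ebna1bp2 (0.407 SD) for Esr1, Scaper (0.357) and Ube2r2 (0.381) for Pgr, and Utp18 (0.356) and Extl1 (0.360) for Tac2. For Kiss1r they were Rmnd5a (0.375) and Fam101b (0.390), and for Prlr E430025E21Rik (0.417) and Palm2 (0.425). Gnrh1 was most like AI467606 (0.392) and Avp (0.402), the vasopressin precursor. Avp was high in the pups in which Gnrh1 was high, at 574 CPM in MMS 3, 352 in Control 1 and 419 in Control 6, and low at 94.0 CPM in Control 3 and 99.1 in Control 4, although MMS 1 combined 369 CPM of Avp with a Gnrh1 level of 2.56 CPM. The median distance of each gene to the other 13055 genes lay between 1.09 and 1.11 SD. Among the reproductive genes themselves the closest pairs were Esr1 with Gnrh1 (0.687 SD) and Esr1 with Tac2 (0.694 SD), and 2.92% and 3.18% of all genes were closer to Esr1 than these. With 12 libraries and this many genes some close matches arise in any case, and no test was applied.

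The last question was whether other genes of the axis differed, which was asked of 7 lists of 133 genes. Of these, 132 were among the gene rows and 103 were tested. With edgeR 0 of them were past the FDR threshold, and 8 (7.77%) had an unadjusted p under 0.05, 5 higher and 3 lower in MMS, against 9.08% of all genes (4.68% higher, 4.40% lower). DESeq2 gave 10 and limma-voom 8 at that unadjusted p. The share was not above the background. Of the 8 genes, 3 (Paqr8, Npffr1 and Shc1) had an unadjusted p under 0.05 in all 12 fits without 1 library and also without both MMS 2 and MMS 4, and the other 5 did not without both. The median log2 fold change was -0.03 over these genes and 0.0009 over all genes.

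Of the other steroid receptors, 9 of 11 were tested, 2 had an unadjusted p under 0.05 (both higher in MMS), and the median log2 fold change was 0.10. Paqr8, a membrane progesterone receptor, had the smallest p of all 7 lists. It measured 65.2 ± 11.2 CPM in controls and 91.3 ± 10.4 in MMS (SD, n = 6 per group; log2 fold change 0.49, SE 0.12, unadjusted p = 0.000507, edgeR adjusted p = 0.385). MMS values ran from 80.5 to 109 CPM and control values from 56.6 to 86.7 CPM. The groups were separated but for Control 4, whose 86.7 CPM lay above MMS 1 (81.0 CPM) and MMS 5 (80.5 CPM). The fold change was 0.41 without both MMS 2 and MMS 4 (unadjusted p = 0.00153, edgeR adjusted p = 0.572). Esrra, an orphan receptor related to the estrogen receptors, was higher by 0.45 on the log2 scale (SE 0.19) at an edgeR adjusted p of 0.543, and by 0.32 without both libraries (unadjusted p = 0.146 in edgeR). Paqr7, another membrane progesterone receptor, had -0.19 (SE 0.11, edgeR adjusted p = 0.592), and -0.09 without both.

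In prolactin receptor signalling 14 of 16 genes were tested, of which 2 had an unadjusted p under 0.05, both lower in MMS, with a median log2 fold change of -0.07. Shc1, an adaptor of receptor tyrosine kinases and cytokine receptors, measured 8.90 ± 1.21 CPM in controls and 4.64 ± 1.81 in MMS (SD, n = 6 per group). All 6 MMS libraries (2.47 to 6.99 CPM) lay below all controls (7.31 to 10.3 CPM). Groups without overlap, in either direction, were found for 51 (0.389%) of the 13104 genes tested. Its log2 fold change was -0.93 (SE 0.26, unadjusted p = 0.00153, edgeR adjusted p = 0.471), and it ran from -1.08 to -0.78 without 1 library. For Ghr, the growth hormone receptor, the value was -0.48 (SE 0.18), at an edgeR adjusted p of 0.543, and -0.33 without both MMS 2 and MMS 4. The transcription factors Stat5a and Stat3, which act downstream of cytokine receptors, had 0.78 (SE 0.39) and 0.29 (SE 0.15), with edgeR adjusted p-values of 0.555 and 0.556. Stat5a was low, at 1.78 ± 0.97 CPM in controls and 3.15 ± 0.83 in MMS (SD, n = 6 per group). Its lowest value was 0.27 CPM in Control 2, without which it had 0.59. Stat3 had 0.18 without both MMS 2 and MMS 4.

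Among other kisspeptin, tachykinin and RFamide genes, 8 of 15 were tested, with 1 higher and 1 lower at an unadjusted p under 0.05 and a median of -0.19. Npffr1, the receptor for the RFamide peptides encoded by Npvf, which restrain GnRH neurons, measured 2.72 ± 1.14 CPM in controls and 4.99 ± 1.36 in MMS (SD, n = 6 per group). In 5 of 6 MMS libraries it lay above all controls (log2 fold change 0.84, SE 0.32, edgeR adjusted p = 0.543). Npvf itself had -0.57 (SE 0.37, edgeR adjusted p = 0.626), -0.36 without MMS 2 and -0.31 without both MMS 2 and MMS 4. Qrfp, an RFamide peptide of the hypothalamus, had -0.79 (SE 0.36, edgeR adjusted p = 0.543), -0.52 without both libraries and -0.50 without Control 5. Tacr1, the substance P receptor, had 0.19 (SE 0.20, edgeR adjusted p = 0.768) and -0.03 without both libraries.

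**Figure D5:**
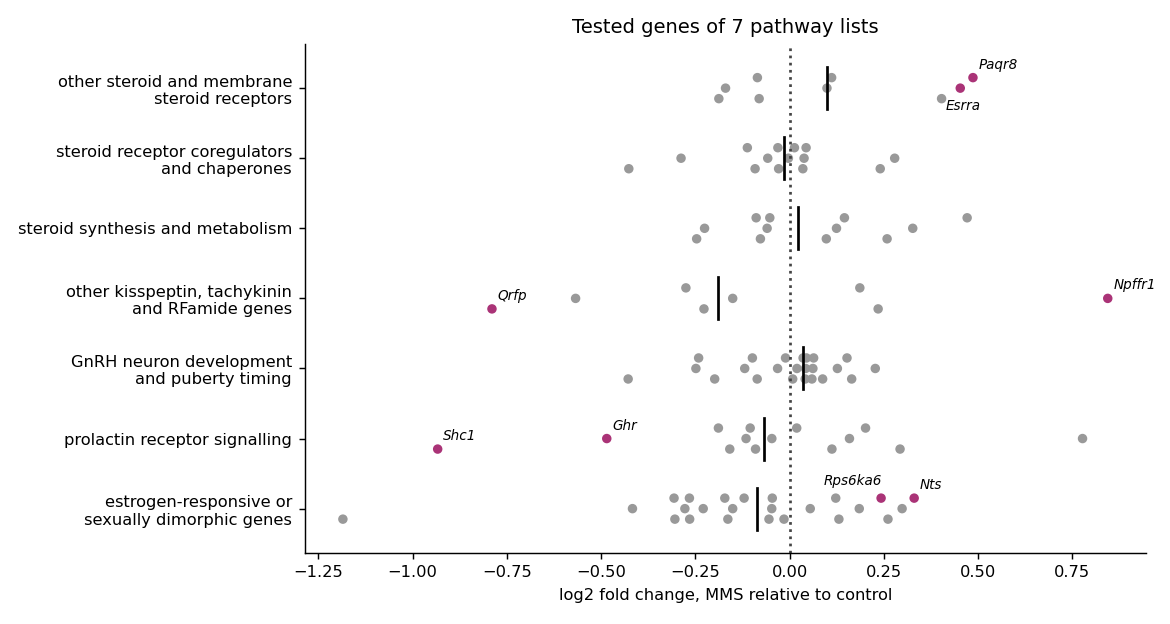
Log2 fold change, MMS relative to control, of each tested gene of 7 lists (points) with the list median (black bar); coloured and named points are the 8 genes at an unadjusted p under 0.05. The medians lie between -0.19 and 0.10, and none of the 103 genes was past an FDR of 0.05 in edgeR.

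In the remaining lists few or no genes had a small p. Of the coregulators 0 of 14 had an unadjusted p under 0.05 in edgeR (median -0.02), with Ncoa1 at 0.24 (SE 0.13), Nrip1 at 0.28 (SE 0.17) and Ncoa3 at -0.29 (SE 0.16) among those with the smallest p in each direction. Without both MMS 2 and MMS 4 Ncoa1 was at 0.09, and without MMS 1 Nrip1 was at 0.18. Of 12 tested genes of steroid synthesis and metabolism 0 passed that p (median 0.02). Hsd17b4 (0.47, SE 0.23) and Hsd17b7 (0.26, SE 0.13) led among the higher and Fdx1 (-0.23, SE 0.14) and Fdxr (-0.25, SE 0.20) among the lower. Without both MMS 2 and MMS 4 Hsd17b4 was at 0.0078 and Fdxr at -0.07. Hsd17b7 was at 0.39 there, with an unadjusted p of 0.00346 and an adjusted p of 0.827 in edgeR. Cyp17a1, Hsd3b1, Hsd3b2, Hsd3b6, Srd5a2 and Akr1c18, which act in the making of androgens and progestins and in their breakdown, had 0 counts in all libraries. Of 23 tested genes of GnRH neuron development and puberty timing 0 passed (median 0.04), with Nrp1 (0.13, SE 0.11), Wdr11 (0.16, SE 0.16), Dlk1 (-0.25, SE 0.19) and Six6 (-0.43, SE 0.37) named by the same rule. Without both MMS 2 and MMS 4 these were at 0.025 (Nrp1), 0.12 (Wdr11), -0.018 (Dlk1) and -0.019 (Six6), and without MMS 2 alone Wdr11 was at 0.064. Of 24 tested estrogen-responsive or sexually dimorphic genes, 2 were higher at that p, Nts (0.33, SE 0.15) and Rps6ka6 (0.24, SE 0.12), and the lower genes with the smallest p were Cartpt (-0.30, SE 0.15) and Pdzrn4 (-0.31, SE 0.16). Without both libraries Nts was at 0.21 and Rps6ka6 at 0.18, with unadjusted p-values of 0.144 and 0.162 in edgeR, and Pdzrn4 was at -0.13. In the main fit these 15 genes had edgeR adjusted p-values of 0.543 to 0.746.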

How the data were processed

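RNA from the P6 hypothalamus of 12 pups was made into QuantSeq 3' mRNA libraries, sequenced on the Ion Proton platform and aligned to mm10 in Torrent Suite. The authors deposited raw counts per gene, unnormalised and not pooled. The sources used here do not give the counter or how it handled strand and shared reads, so counts of overlapping genes are uncertain.

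Titles gave group and replicate. In 27 rows the symbol had become a date (0.175% of counts), and these stayed unnamed. Over 30 within-group pairs the chi-square per degree of freedom was 4.04 to 31.5, so no library was merged. Differential expression used edgeR 4.0.16 in R 4.3.3 (robust quasi-likelihood, TMM scaling, two-sided). Genes were kept by filterByExpr, with a level of about 10 counts in at least 6 libraries and 15 counts in total. Benjamini-Hochberg adjustment was over 13104 genes, with a threshold of 0.05. Intervals are 95%. Exact permutation tests of CPM used all 924 splits, whose smallest p is 0.00216, on 8 genes, unadjusted. Counting intervals and the limit from a count of 0 (3 counts) cover counting error only. Alternatives used DESeq2 1.42.0, limma 3.58.1 and sva 3.50.0, and the main test was checked on simulated data.

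Coordinates and exons are from GENCODE M21 (mm10), which held 91.1% of symbols. The 9 genes, all lists and tests were chosen with earlier results of these data known. Named genes were the 9, the 2 with the smallest p per direction in each pathway list, and the 2 most alike in pattern, of which 3 are not reported here. Markers are named beside the results they touch.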

Additional observations from a re-analysis of the deposited data

Results flagged for a closer look

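Dixon's criterion for a value distant from its group was applied to 48 sets of 6 libraries (8 reproductive axis genes and 16 gene lists per group). It was met in 2 sets, and about 2.4 (1 in 20) are met by chance. Cyp19a1 in Control 6 measured 1.68 CPM, from 8 counts, against 0.615 CPM in the next highest control. The summed choroid plexus markers in Control 3 measured 1805 CPM, against 55.7 CPM in the next highest control. Prlr in that library, at 10.5 CPM, was the lowest of all 12.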

How the results depend on the processing

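None of the 6 tested reproductive axis genes had an unadjusted p under 0.05 in any of 8 other settings or in 12 fits without 1 library. Esr2 and Cyp19a1, with 30 counts each, could be fitted only with no count filter and in DESeq2, and Kiss1, with 0 counts, in none. Some signs turned. Without both MMS 2 and MMS 4 the log2 fold change was 0.031 for Esr1, -0.20 for Pgr and -0.034 for Tacr1, and the differences in mean CPM behind the exact permutation tests were 0.275 for Esr1, -0.026 for Esr2 and -1.47 for Pgr. With 1 surrogate variable the log2 fold changes were 0.046 for Esr1, -0.22 for Pgr, 0.0036 for Six6 (-0.43 in the main fit) and -0.032 for Tacr1. The surrogate variable was 0.71 in MMS 2 and 0.56 in MMS 4, against -0.18 to -0.03 in the other libraries. It is therefore close to leaving out both and is not a separate check. Limma-voom gave 0.012 for Tac2. Without 1 library, Esr1 ran from -0.28 to 0.10, Pgr from -0.078 to 0.11, Tac2 from -0.20 to 0.17 and Gnrh1 from -0.43 to 0.43. The causes were not tested.

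The count of genes past an FDR of 0.05 was 1 on library totals, 1 with no count filter, 5 without both MMS 2 and MMS 4, 6 in DESeq2, 4 with 1 surrogate variable and 0 to 1 without 1 library (1 without MMS 2 or MMS 4). At an unadjusted p under 0.05 it was 2039 with no count filter, 674 without both MMS 2 and MMS 4, 682 with 1 surrogate variable and 700 to 1804 without 1 library (700 without MMS 2, 707 without MMS 4, 1804 without MMS 5). Of the pathway genes, 15 had that p with no count filter and 6 to 14 without 1 library (14 without MMS 5, 13 without MMS 6).

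The labels do not say what the replicate numbers shared by both groups stand for, and the data gave no clear sign of pairing. The correlation of deviations from group means ran from -0.05 to 0.12 over 6 numbers, and 1 of 6 numbers was the best match both ways. With the replicate number as a block, 1 gene was past the FDR threshold, and the log2 fold changes of Pgr and Tac2 were -0.0053 and 0.014. Under the block 1224 genes, 8 of them pathway genes and 0 reproductive axis genes, had an unadjusted p under 0.05, and the other signs of named genes were kept.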

Other observations

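Telencephalic markers, which would rise with cortical or striatal tissue in the dissection, summed to 102 to 123 CPM in controls and 82.4 to 132 CPM in MMS, and markers of habenula and thalamus to 774 to 1527 CPM and 710 to 1560 CPM. Of the habenula and thalamus list, Calb2 alone measured 486 to 1066 CPM and Tcf7l2 68.5 to 490 CPM over the 12 libraries. The sum therefore mainly follows these genes, and the share of thalamic tissue was not tested. The habenula is a known site of Tac2 expression. Over all 12 libraries its marker Gpr151 had 8 counts, Pou4f1 47, Chrnb4 65 and Chrna3 353. All 10 habenula and thalamus markers and all 9 telencephalic markers had counts in some library.

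The dopamine transporter Slc6a3, of the list of estrogen-responsive or sexually dimorphic genes, was chosen after its value was seen and had the most negative log2 fold change of the 7 lists, -1.18 (SE 0.62, edgeR adjusted p = 0.566). Its mean level was 8.36 CPM for controls and 3.51 CPM for MMS pups.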
